A study of Homo sapiens with 12 samples.

Results

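The genes described here were 158 zinc finger genes that carry a symbol of the form ZNF and a number and that were well expressed in the untreated cells of both cell lines. They were taken from 477 such symbols by one rule, that a gene had to reach at least 200 sequencing counts in each of the 5 control libraries, after the rows of a symbol had been added up. Of the other 319 symbols, 7 had no count in any of the 12 libraries. The genes were thus chosen by their control counts, and the choice was made with earlier results of these data known. The rule itself used no count from the treated or p53-WT libraries, but the choice was not blind to them. The control levels and the difference between the 2 cell lines are given as a description with no test.

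Most ZNF proteins bind DNA through tandem C2H2 fingers, short loops folded around a zinc ion, in which neighbouring fingers read neighbouring stretches of bases. The largest class also carries a KRAB domain, which recruits the corepressor TRIM28 and with it histone methylation and heterochromatin proteins, and many of these genes lie in dense tandem clusters on chromosome 19. A smaller class carries a SCAN domain, through which the proteins form dimers. Some genes with ZNF names act elsewhere, on RNA, the ribosome or the mitotic spindle.

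RNA was measured by sequencing in 6 libraries of TOV-112D, an ovarian cancer line whose p53 carries R175H, and 6 libraries of Saos-2, an osteosarcoma line without functional p53. TOV-112D cells had received the vehicle DMSO, the pyrimidine trione UCI-1001 or its analog UCI-1014 for 3 h, with 2 libraries each. UCI-1001 was given at 10 µM, while no source used here gives the UCI-1014 dose for the sequenced cells. In UCI-1014 a methoxy group takes the place of the nitro group of UCI-1001. Saos-2 cells were the parental p53-null line or a line that carries wild-type p53 (p53-WT) under a doxycycline-inducible promoter, both labelled with 16 h of induction and with 3 libraries each, so the effect of the line and that of p53 cannot be told apart. Nothing says that the libraries of a group came from separate cultures, so the p-values measure the spread between these libraries, which may be technical. In such bulk samples, fewer cells of one kind and less RNA per cell cannot be told apart.

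The libraries held 17762027 to 24629558 counts. Levels are given in CPM, counts scaled to library size, here with TMM factors set within each cell line. CDKN1A, the p53 target that encodes the cell cycle inhibitor p21, stood at 79.2, 56.9 and 58 CPM without p53-WT. It stood at 9039, 7921 and 8047 CPM with p53-WT. Of the osteoblast markers checked in Saos-2 cells, RUNX2 was low (8.48, 12.1 and 10.5 CPM in p53-null), ALPL was at or near 0 and SP7 had no count in any Saos-2 library. These markers thus do not show an osteoblast identity for the Saos-2 libraries, which are called by their label here. Over the 158 genes, chi-square per degree of freedom between replicates was 1.36 to 3.12 in TOV-112D. In Saos-2 cells it was 1.90 between p53-null 2 and 3 and 2.19 between p53-WT 2 and 3, but 9.16 to 12.7 for pairs that include the first library of either group. The first p53-null and p53-WT libraries thus stood apart, and the counts of genes with p53-WT are also given without both, a setting added after the data were seen. Over all rows tested it passed 37.5% higher and 36.7% lower.

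By their encoded proteins, 78 of the 158 genes had a KRAB domain, 12 had a SCAN domain, 8 of these 12 had both, and 76 had neither. The KRAB share was 49.4%, against 76.8% of the 319 ZNF symbols outside the rule, and 32.3% of the genes lay on chromosome 19, against 59.6% outside. The selection by level thus held fewer KRAB genes and fewer chromosome 19 genes. The number of C2H2 fingers ranged from 0 in ZNF330 and ZNF839 to 36 in ZNF142, with a median of 12 in KRAB genes and 7.5 in the others. After chromosome 19 with 51 genes, chromosome 16 held 16, chromosome 7 held 13, chromosome 1 held 10 and chromosome 12 held 8.

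Levels in the controls were modest for most of these genes. The median over the 158 genes of the mean abundance in the 5 control libraries was 13.3 TPM (a measure that corrects for depth and transcript length). The 5 highest by the mean of these libraries are given in that order. Highest was ZNF207 (BuGZ), a partner of BUB3 at kinetochores and on the spindle, at 193 ± 0.449 TPM (SD, n = 2) in DMSO and 156 ± 4.71 (SD, n = 3) in p53-null cells. ZNF706 was at 61.4 ± 4.77 and 138 ± 3.41 TPM, below ZNF664, ZNF593 and ZNF146 within both DMSO libraries but above all 3 in each p53-null library. ZNF593, a factor of ribosome assembly, stood at 97.1 ± 1.68 and 84.4 ± 3.14 TPM. ZNF146, whose protein is made up almost entirely of fingers, stood at 67.3 ± 3.74 and 103 ± 13.5 TPM, and ZNF664 at 112 ± 4.02 and 50.5 ± 10.1 TPM. Of ZNF593 and ZNF146, ZNF593 was the higher in both DMSO libraries and ZNF146 in all 3 p53-null libraries.

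TMM factors were set within each cell line, so CPM had no common scaling between the lines and differences between them are rough. Between the 2 cell lines, 124 of the 158 genes had mean CPM within a log2 difference of 1. By more than that, 25 were higher in DMSO-treated TOV-112D and 9 in p53-null Saos-2. ZNF219, a cofactor of SOX9, was at 137 ± 4.22 CPM (SD, n = 2) in TOV-112D and 16.5 ± 3.17 (SD, n = 3) in Saos-2, and ZNF395, a DNA-binding factor linked to hypoxia, at 79.8 ± 1.14 and 12.7 ± 1.01 CPM. In the other direction, ZNF655 was at 33.1 ± 1.64 and 104 ± 4.78 CPM and ZNF227 at 14 ± 1.38 and 42.6 ± 2.46 CPM. Just inside the floor lay ZNF627, ZNF41 and ZNF736, each with a lowest control count of 200, and just outside it ZNF331, ZNF516 and ZNF277, with lowest counts of 195, 196 and 197. Another 18 ZNF symbols missed the floor in a control but reached 200 counts in each library of the compounds and of p53-WT.

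The promoters of these genes were searched for a few runs of letters that the rule had not used, and set beside all promoters and beside those of 6655 other symbols that reach the same control floor. RefSeq promoters on GRCh38.p14, from 250 bases before to 50 after a start site, were found for 140 of the 158 genes and 27305 symbols in all, and were searched on both strands. The letters CCGGAAG, the core bound by ETS factors, were in 41.4% of the promoters of these genes, 12.2% of all and 26.0% of those at the same floor. ACTACAA, which opens the site known for ZNF143, itself one of the genes described here, was in 9.29%, against 3.43% of all and 5.21% at the floor. TATAAA was in 4.29%, against 13.99% and 6.96%. The median number of CG pairs was 25.5, above the 16 of all promoters but below the 30 of those at the floor. A heat shock element core, GAANNTTC, was in 9.29% (8.21% of all, 6.36% at the floor), the AP-1 site TGACTCA in 5.0% (6.05%, 4.01%) and TGACNNNGC, the antioxidant response element, in 19.3% (16.1%, 19.95%). A match is a run of letters and was not tested for binding.

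A set of 7 stretches with ACTACAA that lie before a RefSeq start site and outside annotated exons is shown, 5′ to 3′ on the strand of the gene, because these letters belong to the site of a factor that is itself among the genes. Capitals mark ACTACAA or, where it lies on the other strand, its reverse complement. They lie at chr19:44212282-44212337 (plus strand) for ZNF227, chr19:9140287-9140353 (plus) for ZNF317, chr9:101398762-101398828 (plus) for ZNF189, chr12:133080673-133080729 (plus) for ZNF140, chr19:9584603-9584669 (minus) for ZNF121, chr1:119648309-119648375 (minus) for ZNF697 and chr19:44500532-44500598 (minus) for ZNF180.
ZNF227: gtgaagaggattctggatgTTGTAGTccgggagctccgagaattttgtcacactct
ZNF317: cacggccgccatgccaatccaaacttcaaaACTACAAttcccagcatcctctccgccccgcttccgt
ZNF189: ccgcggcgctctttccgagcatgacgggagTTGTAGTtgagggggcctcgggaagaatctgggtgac
ZNF140: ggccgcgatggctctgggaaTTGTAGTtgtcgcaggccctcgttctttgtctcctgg
ZNF121: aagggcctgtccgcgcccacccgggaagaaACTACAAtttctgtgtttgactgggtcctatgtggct
ZNF697: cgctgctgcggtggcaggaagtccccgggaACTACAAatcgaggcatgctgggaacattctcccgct
ZNF180: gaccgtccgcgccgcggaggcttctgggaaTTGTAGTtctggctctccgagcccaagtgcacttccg

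UCI-1014 changed many of these genes, and more of them upwards. Against DMSO, 98 of the 158 genes (62.0%) passed an adjusted p of 0.05, of which 70 rose and 28 fell. Over all 14174 rows tested, 47.1% passed, with 23.7% higher and 23.4% lower, and among the 8133 other symbols that reach the same control floor, 58.9% passed, with 29.0% higher and 29.9% lower. The share that passed was thus near that of genes of like level, while 44.3% of the zinc finger genes rose. Their median log2 fold change was 0.16, against -0.02 over all rows tested. Without scaling factors the median of all rows moved to -0.15, and 53 of the genes rose and 50 fell. Their median lay 0.18 above that of all rows with TMM and without factors. Scaling shifts all genes of a comparison nearly alike, so this distance could not change and is no check of the rise. A log2 fold change of 1 was passed by 4 genes, all upwards, against 5.48% of all rows tested in either direction.

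The calls were split by KRAB domain, as a description. Among the 78 KRAB genes, 41 rose and 8 fell, with a median of 0.28. Among the 80 genes without KRAB, 29 rose and 20 fell, with a median of 0.04. Without scaling factors the counts were 33 and 16 for KRAB genes and 20 and 34 for the others. On chromosome 19, 20 of the 37 KRAB genes rose and 1 fell, while of the 14 genes without KRAB there 6 rose and 4 fell. Of the 41 KRAB genes on other chromosomes 21 rose and 7 fell.

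**Figure D1:**
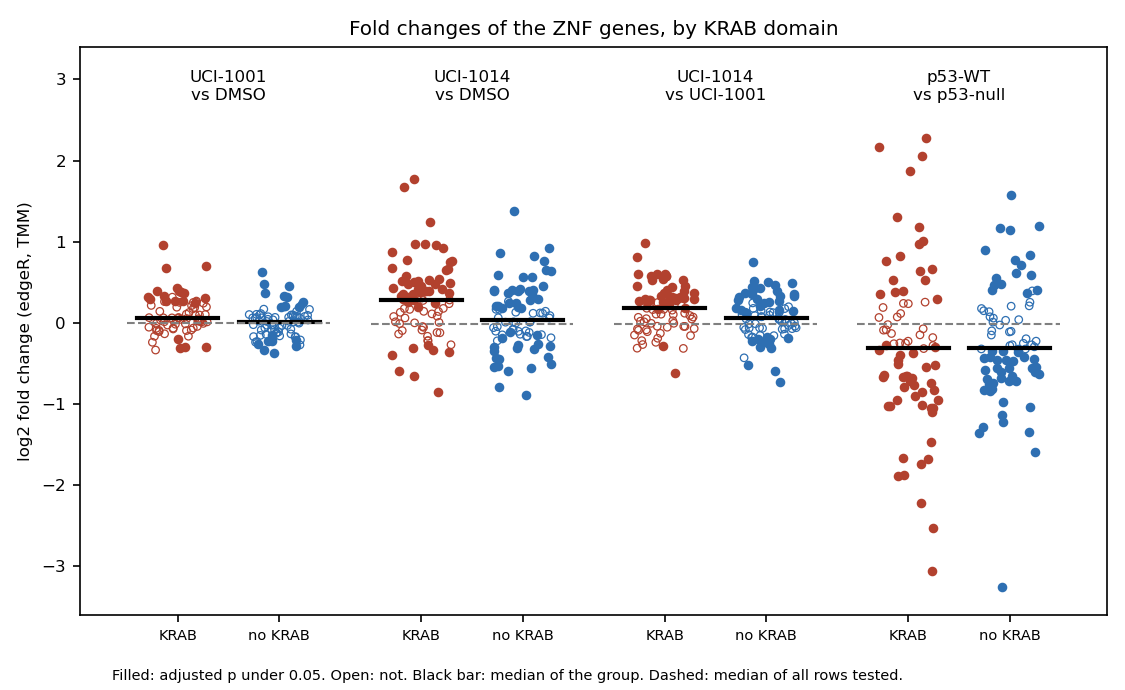
Log2 fold changes (y axis) of the 158 genes in each comparison (x axis), split into 78 KRAB genes (red) and 80 others (blue), with filled points for an adjusted p under 0.05, a black bar at the median of each group and a dashed line at the median of all rows tested. With UCI-1014 the KRAB median is 0.28 and the other 0.04, while with p53-WT both lie at -0.31.

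The 4 genes past a log2 fold change of 1 with UCI-1014 include factors with known targets. ZNF473 (hZFP100, chr19:50025714-50053414, GENCODE 44 on GRCh38), which takes part in the processing of histone pre-mRNA ends with the U7 particle, was at 21.9 and 20.4 CPM in DMSO, 38.5 and 43.3 with UCI-1001 and 81.8 and 62.6 with UCI-1014. Each step was clear of the one before, and the log2 fold change of UCI-1014 against DMSO was 1.77 ± 0.11 (SE; adjusted p = 9.6e-09). ZNF274 (chr19:58183029-58213562), a SCAN and KRAB protein that binds the ends of other zinc finger genes and brings the methyltransferase SETDB1 there, was at 20.0 and 21.1, 31.4 and 35.1 and 70.8 and 60.8 CPM in the same order. It rose by 1.68 ± 0.09 on the log2 scale (adjusted p = 1.1e-09).

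ZNF143 (chr11:9460319-9528524), an activator bound at many promoters including those of small nuclear RNA genes, was at 15.2 and 15.6 CPM in DMSO, 23.1 and 24.4 with UCI-1001 and 44.1 and 36.2 with UCI-1014. It too was higher with UCI-1014 than in any other TOV-112D library, by 1.38 ± 0.10 against DMSO (adjusted p = 3.2e-08). ZNF227 (chr19:44207547-44237268), a KRAB gene, was at 14.9 and 13, 20.8 and 23.8 and 35.2 and 31.4 CPM, a rise of 1.25 ± 0.10 (adjusted p = 1.3e-07). The next rises were those of the KRAB genes ZNF189, from 12.4 and 12.5 to 26.2 and 22.8 CPM (log2 fold change 0.97 ± 0.09), and ZNF468, from 20.2 and 18 to 38.8 and 35.9 CPM (0.97 ± 0.08). For all 6 the UCI-1014 libraries lay above both other groups, which the choice of named genes had required only for DMSO.

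The falls with UCI-1014 were smaller. ZNF696 was at 14.5 and 14.9 CPM in DMSO, 13.4 and 12.9 with UCI-1001 and 7.82 and 8.03 with UCI-1014 (log2 fold change against DMSO -0.89 ± 0.11, adjusted p = 7.1e-06). ZNF584, a KRAB gene, went from 13.6 and 12.6 to 6.69 and 7.73 CPM (-0.86 ± 0.12, adjusted p = 3.5e-05), and ZNF526 from 16 and 16.8 to 9.20 and 9.72 CPM (-0.79 ± 0.10, adjusted p = 1.6e-05). In these 3 the UCI-1001 libraries lay between the other groups. ZNF251 (-0.65), the SCAN repressor ZNF174 (-0.60) and ZNF74, which lies in the DiGeorge region of chromosome 22 (-0.59), made up the 6 largest falls. No fall passed a log2 fold change of -1.

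**Figure D2:**
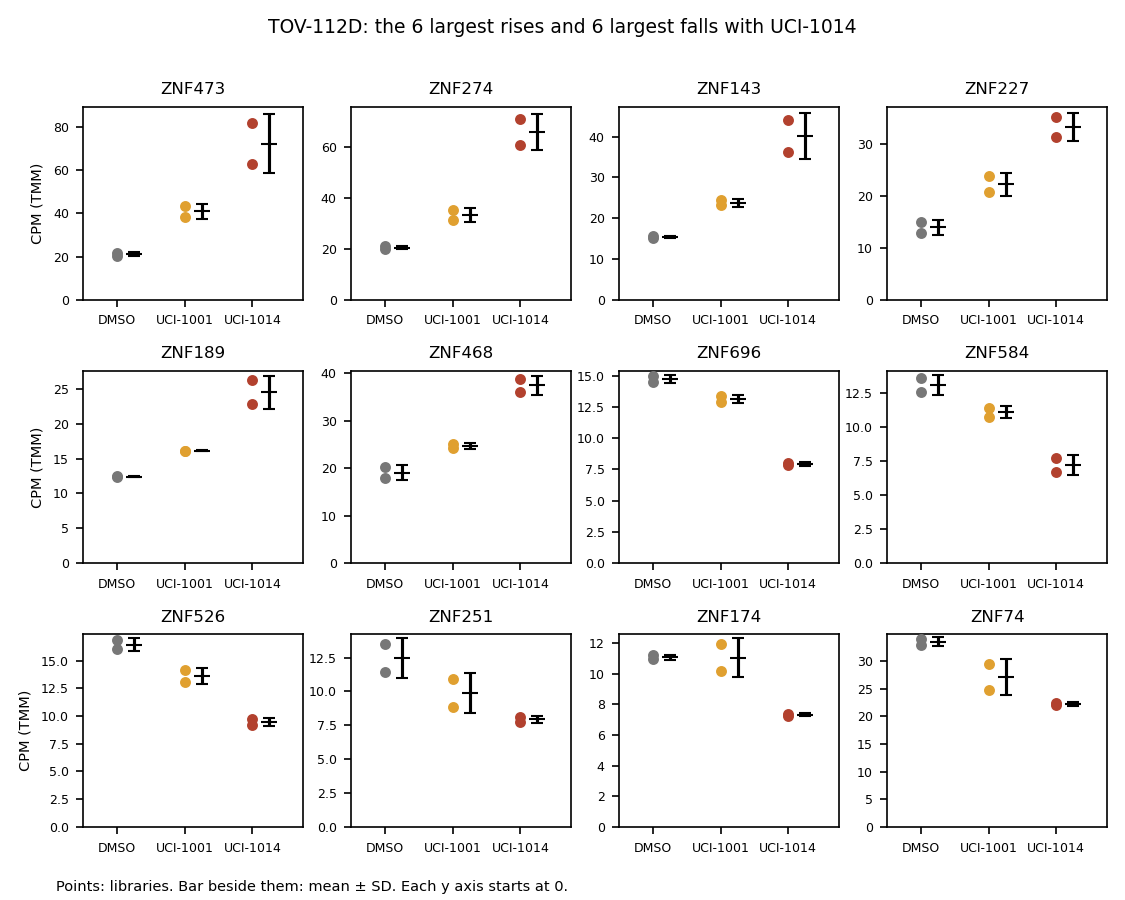
TMM-scaled CPM (y axes, each from 0) in the 6 TOV-112D libraries for the 6 largest rises and 6 largest falls with UCI-1014, with points for libraries and bars for mean ± SD (n = 2). The 6 rising genes climb from DMSO through UCI-1001 to UCI-1014, ZNF473 from between 20.4 and 21.9 to between 62.6 and 81.8 CPM.

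DESeq2 passed 79 of the genes, 61 higher and 18 lower. With an offset for transcript length, available for 136 of the genes, 60 passed (46 higher, 14 lower), against 84 of these 136 without the offset.

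Promoter letters were set beside the UCI-1014 values. Of the 13 genes with ACTACAA, 8 rose and none fell, with a median of 0.36, while of the 127 without it 55 rose and 24 fell, with a median of 0.17. Over all rows tested 23.7% were higher and 23.4% lower, and of the 347 other symbols at the same floor with ACTACAA 28.0% rose and 30.3% fell. ZNF227 rose by 1.25, ZNF189 by 0.97, ZNF317 by 0.93, ZNF121 by 0.77, ZNF140 by 0.75 and ZNF697 by 0.57 on the log2 scale, and ZNF180, also shown above, was at -0.05 (adjusted p = 0.8). Of the 6 genes with TATAAA, 4 rose and none fell, with a median of 0.39. Of the 58 with CCGGAAG, 28 rose and 7 fell, with a median of 0.22, against 0.15 in the 82 without. Of the 7 with TGACTCA, 1 rose and 3 fell, with a median of -0.12. Of the 13 with GAANNTTC 4 rose and 3 fell (median 0.14), and of the 27 with TGACNNNGC 11 rose and 5 fell (0.12). Among the other symbols at the same floor, 35.4% with TATAAA rose and 24.2% fell, and 32.6% and 24.6% with CCGGAAG. The shares were 37.8% and 24.3% with TGACTCA, 36.6% and 19.6% with GAANNTTC, and 31.4% and 27.6% with TGACNNNGC. The counts by promoter letters rest on few of the zinc finger genes and were not tested.

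UCI-1001 gave smaller changes in the same cells. Against DMSO, 38 of the 158 genes passed (26 rose, 12 fell; 24.1%), against 15.8% of all rows tested, where 9.39% were higher and 6.36% lower, and 20.2% of the other symbols at the same control floor (12.1% higher, 8.12% lower). The median log2 fold change was 0.04, against 0.0016 over all rows, and no gene passed a log2 fold change of 1, against 1.31% of all rows. Without scaling factors 21 rose and 14 fell. The 78 KRAB genes held 16 rises and 4 falls (median 0.06), and the 80 others 10 and 8 (median 0.01). Chromosome 19 held 13 rises and no fall among 51 genes, or 10 rises and 1 fall without scaling factors. The other chromosomes held 13 rises and 12 falls among 107 genes, or 11 and 13 without scaling factors.

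The largest rises with UCI-1001 were those of ZNF473 (log2 fold change 0.95 ± 0.12, adjusted p = 6.4e-05), ZNF274 (0.69 ± 0.09, adjusted p = 0.00013), ZNF227 (0.67 ± 0.10, adjusted p = 0.00047) and ZNF143 (0.63 ± 0.10, adjusted p = 0.00073), whose CPM are given above. ZNF397, a SCAN gene, went from 13.8 and 14.7 to 20.8 and 18.9 CPM and ZNF507 from 57.8 and 59.6 to 75.7 and 85.3 CPM. UCI-1001 and UCI-1014 share the DMSO libraries, so that like values in both comparisons are not independent. Of the 6 largest falls, ZNF276 went from 27.4 and 24.5 to 20.8 and 19.5 CPM (-0.37), ZNF395 from 79 and 80.6 to 62.9 and 63.2 (-0.34) and ZNF282, known for binding a viral promoter element, from 65.6 and 61.3 to 53.3 and 49.2 (-0.31). ZNF74 (-0.30), ZNF398 (-0.30) and ZNF629 (-0.29) fell by like amounts.

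The number of UCI-1001 calls rested on single libraries. It was 8 without DMSO 1, 16 without DMSO 2, 16 without UCI-1001 2 and 28 without UCI-1001 1, and 6 of the 38 genes passed in every such fit: ZNF473, ZNF274, ZNF227, ZNF143 and ZNF507, which rose, and ZNF395, which fell. DESeq2 passed 17, and the transcript length offset 7 of 136, against 31 of these without it.

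Set directly against UCI-1001, UCI-1014 was higher for 62 of the 158 genes and lower for 14. These 76 (48.1%) compare with 31.1% of all rows tested, 17.2% higher and 13.9% lower, and with 40.9% of the other symbols at the same floor (22.7% higher, 18.3% lower). The median difference was 0.12, against -0.01 over all rows. Without scaling factors 34 were higher and 37 lower, around a median of all rows of -0.13, so the balance of directions depended on the scaling. Since the dose of UCI-1014 is not known here, the 2 compounds may not have been at the same dose.

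The largest differences were in ZNF274, at 70.8 and 60.8 CPM with UCI-1014 and 31.4 and 35.1 with UCI-1001 (log2 difference 0.98 ± 0.08, adjusted p = 5.3e-07), ZNF473 (0.81 ± 0.10, adjusted p = 2.8e-05) and ZNF143 (0.75 ± 0.09, adjusted p = 2.2e-05). ZNF195, a KRAB gene, was at 25.6 and 24.1 CPM in DMSO, 23.6 and 28.4 with UCI-1001 and 40.7 and 38.3 with UCI-1014. It thus moved with UCI-1014 (0.60 ± 0.09 against UCI-1001, adjusted p = 0.0001), while its difference between UCI-1001 and DMSO was 0.06 ± 0.09 (adjusted p = 0.71). Lower with UCI-1014 were ZNF696 (-0.73 ± 0.11, adjusted p = 0.00012), ZNF584 (-0.62 ± 0.12), ZNF174 (-0.59 ± 0.12) and ZNF526 (-0.52 ± 0.10). ZNF174 stood at 11 and 11.2 CPM in DMSO, 10.2 and 12 with UCI-1001 and 7.41 and 7.27 with UCI-1014. Among other genes named for UCI-1001, the difference between the compounds did not pass in ZNF276 (log2 difference 0.05, 95% interval -0.14 to 0.23), ZNF282 (-0.09, -0.22 to 0.05), ZNF398 (-0.01, -0.18 to 0.17), ZNF629 (-0.07, -0.20 to 0.07) and ZNF397 (-0.18, -0.38 to 0.02).

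The number of genes that passed between the compounds was 50 without UCI-1001 1, 46 with DESeq2, and 31 of 136 with the length offset, against 64 of these without it. The 14 lower genes became 6 without UCI-1001 1 and 8 without either UCI-1014 library.

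In p53-WT Saos-2 cells more of these genes were lower than higher. Of the 158 genes, 112 (70.9%) passed, 78 lower and 34 higher. Over all 14272 rows tested 66.5% passed, 33.0% lower and 33.5% higher, and among the other symbols at the same control floor 68.0%, 39.5% lower and 28.5% higher. The share that passed was near the background and the share that fell above it, at 49.4%. The median log2 fold change was -0.31, against -0.01 over all rows and -0.11 over the other symbols at the floor. A floor on the control counts alone favours genes that are lower elsewhere; among the 229 genes with a mean of 200 over all 12 libraries, 160 passed, 60 higher and 100 lower, with a median of -0.25. Without scaling factors 27 rose and 91 fell. Without the first library of both groups 43 rose (27.2%) and 82 fell (51.9%), with a median of -0.27. Of the other symbols at the floor 35.1% rose and 45.7% fell without these libraries, with a median of -0.09.

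Fold changes reached larger sizes than in the TOV-112D comparisons. A log2 fold change of 1 was passed by 11 genes upwards and 23 downwards, and by 30.5% of all rows tested. At a stricter adjusted p of 0.001, 67 of the genes passed (20 higher, 47 lower), while 40.2% of all rows tested did. KRAB genes (18 rose, 40 fell, median -0.31) and the others (16 rose, 38 fell, median -0.31) had like counts. On chromosome 19, 8 rose and 33 fell of 51, with a median of -0.51, and on the other chromosomes 26 rose and 45 fell of 107, with a median of -0.25. On chromosome 19 the 37 KRAB genes held 6 rises and 24 falls (median -0.67), and the 14 others 2 and 9 (median -0.39). The 41 KRAB genes on other chromosomes held 12 rises and 16 falls (median -0.18). Chromosome 16 held 1 rise and 9 falls among 16 genes. Without the first library of both groups the counts were 22 rises and 38 falls for KRAB genes and 21 and 44 for the others. They were 9 and 32 on chromosome 19, 34 and 50 elsewhere and 2 and 10 on chromosome 16. In that setting KRAB genes held 7 rises and 23 falls on chromosome 19, and 15 and 15 elsewhere. The chromosome 19 genes without KRAB held 2 and 9.

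The 6 largest rises were all but one in KRAB genes. ZNF777 (chr7:149431363-149461062) went from 11.2, 13 and 12.6 CPM in p53-null to 61.7, 55.7 and 60.5 in p53-WT cells (log2 fold change 2.27 ± 0.11, adjusted p = 2.0e-08). ZNF746 (chr7:149472696-149497817), its neighbour on chromosome 7, encodes PARIS, a parkin substrate that represses PGC-1alpha, and went from 17.3, 17.6 and 19.9 to 76.9, 74.3 and 76.3 CPM (2.06 ± 0.11, adjusted p = 2.8e-08). ZNF195 went from 14.8, 13.2 and 12.5 to 61.3, 62.3 and 58.2 CPM (2.17 ± 0.11). In each of these the lowest p53-WT library lay far above the highest p53-null library.

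ZNF561 (chr19:9604680-9621236) went from 28.1, 24.3 and 22.9 to 92.1, 92.8 and 90.4 CPM (1.87 ± 0.11, adjusted p = 8.7e-08), ZNF219, which has no KRAB domain, from 13.3, 16.6 and 19.6 to 48, 49.9 and 50.3 (1.58 ± 0.14) and ZNF343 from 12, 12.5 and 12.6 to 33.8, 29.5 and 28.4 (1.31 ± 0.12). For these rises and those above, a lack of overlap between the groups had been required by the choice of named genes.

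The falls were led by ZNF367 (chr9:96385941-96418370), from 35.4, 47.5 and 44.2 to 2.97, 5.53 and 4.89 CPM (log2 fold change -3.25 ± 0.21, adjusted p = 1.3e-07). The next 5 were all KRAB genes. ZNF100 (chr19:21722771-21767579) went from 22.3, 19.7 and 17.6 to 1.42, 2.64 and 3.08 CPM (-3.06 ± 0.22, adjusted p = 4.4e-07) and ZNF107 from 16.2, 16.6 and 15.3 to 2.17, 3.34 and 2.86 (-2.53 ± 0.16). ZNF736 went from 9.21, 10.1 and 9.56 to 1.77, 2.34 and 2.07 CPM (-2.23 ± 0.16). ZNF43 went from 15.1, 17.8 and 14.9 to 2.79, 4.93 and 5.15 (-1.89 ± 0.20) and ZNF551 from 12.8, 10.4 and 11.2 to 3.63, 2.94 and 2.82 (-1.87 ± 0.16). All 12 of the named rises and falls passed again, in the same direction, without the first library of both groups. ZNF367 was then at -3.13 and ZNF777 at 2.19. The 12 had been chosen as the largest changes with these same libraries included. Of all 112 genes called with p53-WT, 109 were still called in that setting. Several of the KRAB genes have close relatives in their cluster, and reads shared between such copies were divided by the authors' quantification, so values of single genes there are uncertain.

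**Figure D3:**
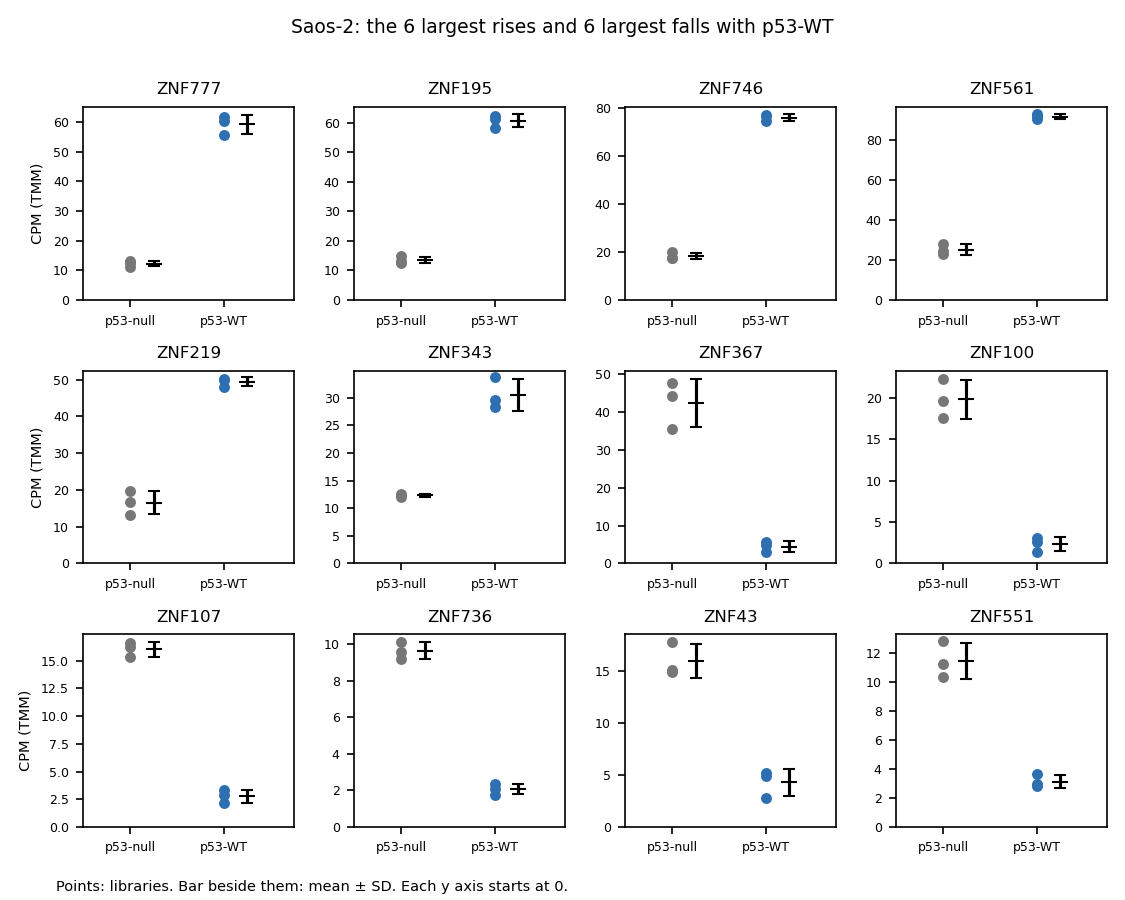
TMM-scaled CPM (y axes, each from 0) in the 6 Saos-2 libraries for the 6 largest rises and 6 largest falls with p53-WT, with points for libraries and bars for mean ± SD (n = 3). The genes were named only where the groups did not overlap. ZNF367 drops from between 35.4 and 47.5 to between 2.97 and 5.53 CPM.

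Genes that lie beside each other sometimes moved alike. Neighbours were taken as members whose starts lie at most 1 Mb apart, in groups of 4 or more, a grouping chosen after the values were seen and given without a test. ZNF714, ZNF431, ZNF100 and ZNF43, KRAB genes at chr19:21082159-21852125, all fell with p53-WT, by values from -1.68 to -3.06. With UCI-1014 2 of these 4 rose, and their median was 0.17. In the group from ZNF48 to ZNF267 on chromosome 16 (chr16:30378106-31917357), 7 of 9 fell and none rose with p53-WT, with a median of -0.52.

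On chromosome 7, the 5 KRAB genes from ZNF398 to ZNF746 (chr7:149126416-149497817) held 3 rises with p53-WT, ZNF777, ZNF746 and ZNF398 (0.83), while ZNF282 was at 0.24 (adjusted p = 0.078) and ZNF212 at -0.02 (adjusted p = 0.89). The group from ZNF317 to ZNF562 (chr19:9140397-9675100) was split within itself. With p53-WT 5 of its 6 genes fell, among them ZNF121 (-1.34) and ZNF317 (-0.67), while ZNF561 rose by 1.87. With UCI-1014 5 of the 6 rose, with a median of 0.67, and ZNF561 was at 0.14 (adjusted p = 0.16). Without the first library of both Saos-2 groups all 4 genes from ZNF714 to ZNF43 and 7 of the 9 from ZNF48 to ZNF267 fell again, 4 of the 5 from ZNF398 to ZNF746 rose, and 4 of the 6 from ZNF317 to ZNF562 fell and 1 rose.

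**Figure D4:**
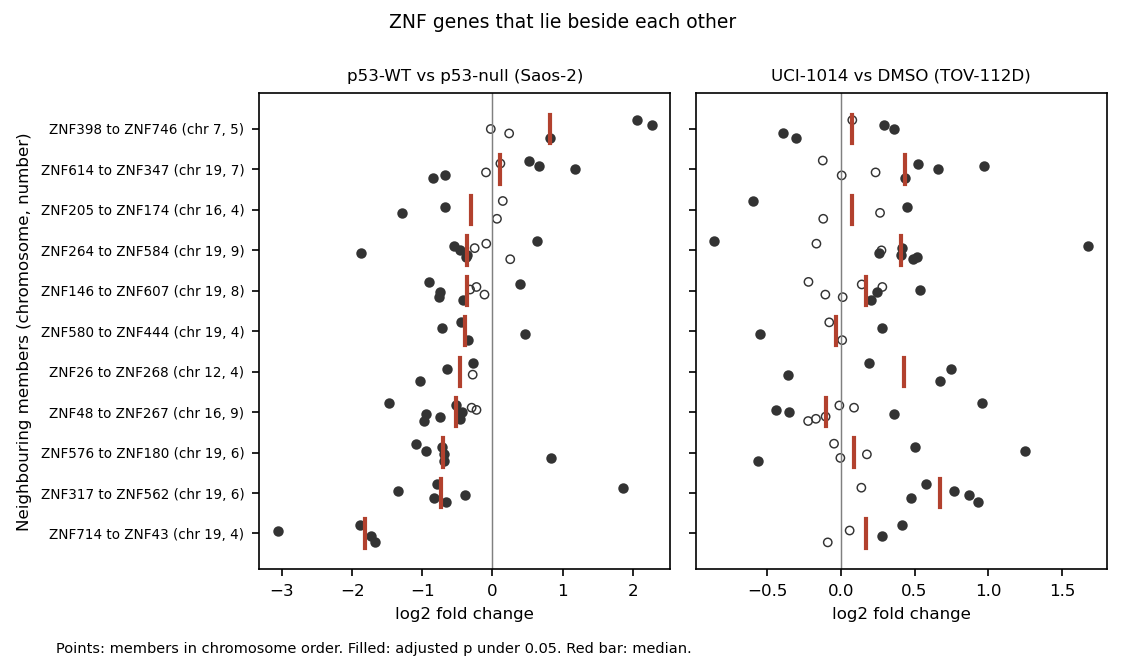
Log2 fold changes (x axes) with p53-WT in Saos-2 (left) and UCI-1014 in TOV-112D (right) for 11 groups of neighbouring members (y axis), with points for genes, filled where the adjusted p was under 0.05, and red bars for medians. The group ZNF714 to ZNF43 lies lowest with p53-WT, at a median of -1.81, and the group ZNF398 to ZNF746 highest, at 0.83.

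The UCI-1014 and p53-WT comparisons share no library and can be set beside each other. Of the 70 genes that rose with UCI-1014, 41 (58.6%) fell and 11 (15.7%) rose with p53-WT. The 41 were 52.6% of the 78 that fell with p53-WT. Of all 158 genes, whatever they did with UCI-1014, 49.4% fell and 21.5% rose with p53-WT. Over the 12937 rows tested in both, 37.6% of those that rose with UCI-1014 fell with p53-WT and 29.2% rose. Of the 28 genes that fell with UCI-1014, 10 fell and 10 rose. Across the 158 genes Pearson's r between the log2 fold changes was -0.18 and Spearman's rho -0.22, and across all rows tested in both r was 0.03 and rho -0.02. Without the first library of both Saos-2 groups, 40 of the 70 fell (57.1%) and 14 rose (20.0%), against 41.5% and 36.1% of all rows that rose with UCI-1014, and r was -0.14 and rho -0.17. In that setting 51.9% of all 158 genes fell and 27.2% rose. These describe genes, which are not independent replicates, in lines that also differ in tissue, time and agent.

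**Figure D5:**
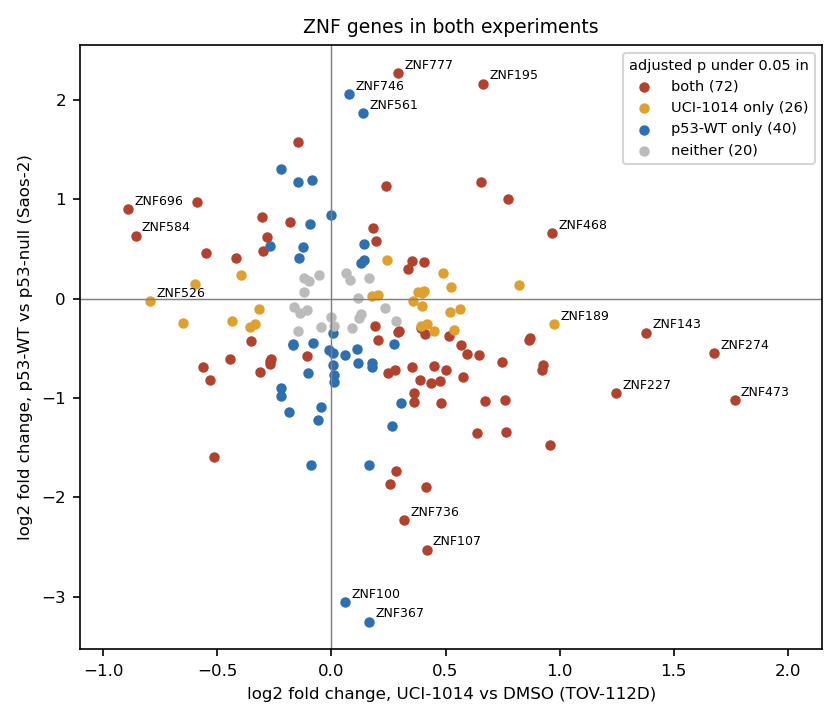
Log2 fold change with UCI-1014 in TOV-112D (x axis) against that with p53-WT in Saos-2 (y axis) for the 158 genes, coloured by which comparison passed an adjusted p of 0.05 (both 72, UCI-1014 only 26, p53-WT only 40, neither 20). Pearson's r is -0.18, with ZNF473, ZNF274, ZNF227 and ZNF143 at the lower right and ZNF195 at the upper right.

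Genes that passed against control with both compounds and with p53-WT were put in order by the smallest of their 3 changes, and the first 6, which rose with the compounds and fell with p53-WT, are given. The directions of the compounds are not independent, since both share the DMSO libraries. ZNF473 went from 13.9, 13.3 and 14.2 CPM in p53-null to 7.44, 6.92 and 6.08 in p53-WT cells (-1.02 ± 0.13, adjusted p = 3.6e-05). ZNF227 went from 41.3, 45.4 and 41 to 22.7, 21 and 22.5 CPM (-0.95 ± 0.10), and ZNF274 from 34.8, 33.4 and 33.6 to 26.9, 21.1 and 21.6 (-0.55 ± 0.12). All 3 were thus lower with p53-WT without overlap. ZNF507 was at 0.46 with UCI-1001, 0.92 with UCI-1014 and -0.72 with p53-WT, ZNF267 at 0.43, 0.96 and -1.47, and ZNF300 at 0.40, 0.76 and -1.02, in the same order. The UCI-1001 calls of ZNF267 and ZNF300 were each lost in 3 of the fits that leave out 1 library, ZNF267 reaching 0.22 (adjusted p = 0.33) without DMSO 1. With p53-WT all 6, chosen for passing with these same libraries included, fell again without the first library of both groups, by values from -0.64 to -1.21. ZNF195, by contrast, rose by 0.67 with UCI-1014 and by 2.17 in p53-WT cells, and ZNF468 rose in all 3, by 0.37, 0.97 and 0.66. ZNF395 fell in all 3 (-0.34, -0.51 and -1.60), and ZNF74 fell with the compounds (-0.30 and -0.59) and rose with p53-WT (0.97). These others were chosen after their values were seen.

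A list of 10 of the genes was drawn up for work away from promoters, mostly on RNA, ribosomes or the spindle. ZNF451 lies outside these, and no role is given here for ZNF706. With UCI-1014 5 of the 10 rose and 3 fell, with a median of 0.17, and with p53-WT 4 rose and 2 fell, with a median of 0.10 (5 and 3 without the first library of both groups). Over all rows tested 23.7% were higher and 23.4% lower with UCI-1014, and 33.5% and 33.0% with p53-WT. Of the 8 calls with UCI-1014, those of ZNF207, ZNF346 and ZNF706 were lost when 1 library was left out, which leaves 4 rises and the fall of ZNF598. ZNF622, a factor in the maturation of the large ribosomal subunit, went from 24.1 and 20.5 CPM in DMSO to 41 and 38 with UCI-1014 (0.82 ± 0.08, adjusted p = 1.7e-06). ZNF330, a nucleolar protein, went from 23.3 and 22.9 to 35.6 and 36.7 CPM (0.65 ± 0.07), and ZNF326, a subunit of the DBIRD complex that links elongation and splicing, from 43.2 and 41.5 to 55.8 and 55.8 (0.40 ± 0.06). ZNF598, the ubiquitin ligase that marks collided ribosomes, fell from 88.8 and 83.5 to 62.8 and 65.9 CPM (-0.42 ± 0.05, adjusted p = 1.4e-05).

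With p53-WT, ZNF598 rose from 49.5, 64 and 66 to 77.7, 79.6 and 80.8 CPM (0.41 ± 0.12, adjusted p = 0.013), a call that was lost without scaling factors. ZNF207 fell from 249, 223 and 223 to 151, 164 and 149 CPM (-0.58 ± 0.10, adjusted p = 0.00037), while ZNF330 was at -0.56 ± 0.10 (adjusted p = 0.0005). ZNF706 (0.58 ± 0.10), ZNF451, a ligase for SUMO (0.55 ± 0.13), and ZNF346, which binds double-stranded RNA (0.48 ± 0.12), rose. ZNF593 and ZNF638, an RNA-binding nuclear matrix protein, were at -0.20 (adjusted p = 0.24) and 0.04 (adjusted p = 0.8).

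A list of 8 genes was drawn up for known chromatin complexes, although ZNF410 is on it as an activator and not as a subunit. With UCI-1014 5 of the 8 rose and none fell, and with p53-WT 3 rose and 2 fell (5 and 3 without the first library of both groups), against the shares of all rows just given. The list as drawn up held 10 genes, with ZNF516 and ZNF827 below the floor. Over these 10, 5 rose and 2 fell with UCI-1014, and 4 rose and 2 fell with p53-WT. When 1 library was left out, ZNF532 and ZNF687 lost their UCI-1014 calls, and ZNF335, ZNF410 and ZNF644 their p53-WT calls. ZNF410, an activator devoted to CHD4, went from 58.6 and 61.5 CPM in DMSO to 115 and 104 with UCI-1014 (0.86 ± 0.07, adjusted p = 2.3e-07), while CHD4 itself was at 385 and 389 and 358 and 347 CPM (-0.14 ± 0.04, adjusted p = 0.0052). ZNF644, a partner of the methyltransferases G9a and GLP, went from 54.6 and 55.2 to 83.1 and 79.7 CPM (0.57 ± 0.05) and ZNF335, a coactivator subunit, from 48.1 and 44 to 61 and 61.2 (0.41 ± 0.07). Of the ZMYND8 partners, ZNF687 went from 21.9, 26.7 and 28.2 to 55.7, 54.6 and 58.9 CPM with p53-WT (1.14 ± 0.12, adjusted p = 7.6e-06) and ZNF532 from 22.6, 29.1 and 27.1 to 41.1, 44.1 and 44 (0.71 ± 0.12), while ZNF592 was at -0.32 ± 0.18 (adjusted p = 0.13). ZNF217, a corepressor subunit amplified in breast cancer, was at 0.06 with UCI-1014 (adjusted p = 0.2) and 0.25 with p53-WT (adjusted p = 0.16), and ZNF512 at 0.16 and 0.21 (adjusted p = 0.094 and 0.11).

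A last list of 3 genes has been linked to p53 itself. With p53-WT 1 of these rose and 1 fell, with a median of -0.23. The list as drawn up held 4 genes, with ZNF420 below the floor, and of these 4, 2 rose and 1 fell, with a median of 0.13. Over all rows tested 33.5% rose and 33.0% fell. ZNF148 (ZBP-89), which binds p53, went from 46.1 and 47.8 to 62.7 and 60.3 CPM with UCI-1014 (0.39 ± 0.06, adjusted p = 6.5e-05) and from 50.5, 52.3 and 50.8 to 22.2, 34.5 and 30.2 with p53-WT (-0.82 ± 0.15, adjusted p = 0.0005). It thus rose in one line and fell in the other. ZNF346 fell with UCI-1014 (-0.30 ± 0.10, adjusted p = 0.019) and rose with p53-WT, as given above. Its fall was lost without DMSO 1 (adjusted p = 0.14), without UCI-1014 1 (0.079) and without UCI-1014 2 (0.057). ZNF668 fell with UCI-1014 (-0.44 ± 0.09, adjusted p = 0.0007) and was at -0.23 ± 0.12 with p53-WT (adjusted p = 0.12). None of the 3 passed with UCI-1001, where they were at 0.06, -0.23 and -0.17.

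The corepressors through which KRAB proteins act are a list of 20 genes from TRIM28 to the HUSH complex, which keeps heterochromatin silent. With p53-WT 13 of the 20 fell and 3 rose, with a median of -0.72. Over all rows tested 33.0% fell and 33.5% rose, with a median of -0.01. Without the first library of both groups 14 of the list fell and 5 rose. TRIM28 itself went from 463, 527 and 547 CPM in p53-null to 331, 302 and 313 in p53-WT cells (-0.70 ± 0.11, adjusted p = 0.00014), the maintenance methyltransferase DNMT1 from 216, 289 and 286 to 99.4, 93.2 and 95.8 (-1.46 ± 0.13) and CBX5, an HP1 protein, from 326, 462 and 472 to 113, 173 and 179 (-1.44 ± 0.19). MORC3 (0.83 ± 0.16), ATRX (0.81 ± 0.23) and HDAC1 (0.31 ± 0.11) rose. With UCI-1014 7 rose and 6 fell, with a median of 0.04, where 23.7% of all rows were higher and 23.4% lower. MORC2 (33.8 and 36.3 to 70.9 and 65.2 CPM), MORC3 (42.5 and 41.9 to 83.6 and 77.3) and the SETDB1 partner ATF7IP (98.8 and 105 to 191 and 172) rose by 0.95, 0.93 and 0.83 on the log2 scale, while TRIM28 was lower, at -0.17 ± 0.04 (adjusted p = 0.0023). With UCI-1001 4 rose and 3 fell (9.39% and 6.36% of all rows).

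Genes that control the release of RNA polymerase II were a second list, of 16. With UCI-1014 6 rose and 6 fell, with a median of 0.05, against 23.7% of all rows higher and 23.4% lower. The elongation factor genes AFF4 (155 and 162 to 422 and 389 CPM, 1.36 ± 0.05) and ELL2 (5.98 and 5.36 to 16.6 and 14.6 CPM, 1.45 ± 0.14) rose, as did CCNT1 (0.64) and CCNT2 (0.68), which encode partners of CDK9. CDK9 (-0.47) and its inhibitor HEXIM1 (-0.47) fell. With p53-WT 4 rose and 6 fell (33.5% and 33.0% of all rows; 4 and 9 of the list without the first library of both groups), and with UCI-1001 2 rose and 2 fell (9.39% and 6.36% of all rows). The part of these lists in the changes of the zinc finger genes was not tested.

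Other zinc finger families are given by their counts. Over all rows tested 23.7% rose and 23.4% fell with UCI-1014 and 33.5% and 33.0% with p53-WT. With UCI-1014, of 34 ZBTB genes tested 13 rose and 9 fell (median 0.05), of 20 ZSCAN and ZKSCAN genes 6 rose and 1 fell (median 0.11), and of 14 ZFP genes 2 rose and 7 fell (median -0.33). With p53-WT, 9 ZBTB genes rose and 12 fell, 3 ZSCAN and ZKSCAN genes rose and 6 fell, and of 13 ZFP genes 3 rose and 5 fell. The ZNF symbols outside the rule, of lower level, held 84 rises and 36 falls among 273 with UCI-1014 (median 0.15) and 60 rises and 108 falls among 276 with p53-WT (median -0.23). Without the first library of both Saos-2 groups the p53-WT rises and falls were 11 and 14 of the ZBTB genes, 5 and 8 of the ZSCAN and ZKSCAN genes, 5 and 4 of the ZFP genes and 66 and 105 of the ZNF symbols outside the rule.

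As a whole the 158 genes took a small share of the counts. The share was 0.626% and 0.619% in DMSO, 0.624% and 0.629% with UCI-1001 and 0.650% and 0.627% with UCI-1014, so both UCI-1014 libraries lay above both DMSO libraries, the lower one by little. In Saos-2 cells it was 0.506%, 0.551% and 0.531% in p53-null and 0.401%, 0.472% and 0.456% in p53-WT libraries, again without overlap. As a share of the TMM-scaled library size the means were 0.601% ± 0.00255 (SD, n = 2) in DMSO, 0.677% ± 0.0177 (SD, n = 2) with UCI-1014, 0.503% ± 0.00828 (SD, n = 3) in p53-null and 0.467% ± 0.0258 (SD, n = 3) in p53-WT. By transcript type, 93.1% to 93.9% of these counts fell on protein-coding transcripts in every library and 1.84% to 2.84% on transcripts with a retained intron.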

How the data were processed

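The deposited gene counts, not normalized, were used for all tests. Per the labels and the study's methods, the authors quantified reads with kallisto 0.48.0 on GRCh38, summed estimated counts of transcripts per Ensembl gene and made them integers, and tested them with DESeq2 1.38.3. The per-library files deposited by the authors hold estimated counts, TPM and effective lengths of transcripts; TPM entered no test, and lengths and estimated counts entered only an offset, for 136 members whose transcript sums match the deposited count. TPM of the other 22 may be too low.

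The 40295 deposited rows were added up by symbol to 36482, and edgeR 4.0.16 (TMM, filterByExpr, glmQLFit and glmQLFTest, Benjamini-Hochberg adjustment over all rows tested) in R 4.3.3 was fitted once per cell line, to 14174 rows in TOV-112D and 14272 in Saos-2. A gene was called at an adjusted p under 0.05. All 158 members passed the low-count filter in both fits. The fits were first tested on simulated counts. Depth was 17762027 to 24629558 counts per library, so that 3 counts are 0.131 to 0.179 CPM, which covers counting error only. The common coefficient of variation between replicates came to 3.59% (TOV-112D) and 12.3% (Saos-2).

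Members and lists were chosen with earlier results of these data known. Genes named were, per comparison, the 6 largest rises and falls (4 between compounds) past the threshold with no overlap of CPM, 6 passing in all 3 comparisons with a control, the 5 highest TPM, the genes next to the floor and the role lists; neighbours, other examples and the further genes with a promoter match were added after values were seen. Coordinates are those of GENCODE 44. KRAB domains were found with HMMER 3.4 on a profile made with MAFFT 7.526 from translated GENCODE 44 proteins, at an E-value of 0.001 in any isoform, and SCAN domains and C2H2 fingers by sequence pattern. ZNF516, ZNF827 and ZNF420 were on the role lists but below the floor. Alternatives were other scaling (RLE, none), no low-count filter, DESeq2 1.42.0, rows by identifier, a length offset, a replicate block, single libraries left out, only the groups compared, and other member floors; the fits without both first Saos-2 libraries, with crossed numbers and on the offset rows without the offset were added after the data were seen. Values of some single genes outside the members are not reported here.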

Additional observations from a re-analysis of the deposited data

How the results depend on the processing

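Under the alternatives, 1894 values of the named genes kept their direction and their side of the threshold, 131 lost the call and 22 gained one; 30 values, of 15 genes, changed sign, all of them without a call in either fit; where a fit left a group with 1 library, that library was assumed to vary like the others. RLE factors, no low-count filter, rows by identifier and fitting only the groups compared kept every count of calls within 1.5 times. DESeq2 called 17 genes with UCI-1001 (11 higher, 6 lower), 18 lower with UCI-1014, and 46 between the compounds (40 higher, 6 lower). The length offset called 7 with UCI-1001 (5 higher, 2 lower), 60 with UCI-1014 (46 higher, 14 lower) and 31 between the compounds (27 and 4), against 31, 84 and 64 in the same rows without it, and ZNF143 lost its UCI-1001 call there. Without scaling factors UCI-1014 had 50 lower, and between the compounds 34 were higher and 37 lower. For these changes the cause was not tested.

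Other member rules changed the number of genes, and some shares with it. With a mean of 200 over all libraries (229 genes), 62 were called with UCI-1001 (43 and 19), 46 were lower with UCI-1014, 23 lower between the compounds and 60 higher with p53-WT. With a floor of 100 (265 genes), 63 were called with UCI-1001 (47 higher), 161 with UCI-1014 (114 and 47), 23 were lower between the compounds, and 183 were called with p53-WT (61 and 122). With a floor of 400 (70 genes) the calls were 17 with UCI-1001 (8 higher), 44 with UCI-1014 (30 and 14), 36 between the compounds (29 and 7) and 50 with p53-WT (15 and 35). As a share of the TMM-scaled size the genes took 0.601% in DMSO, 0.613% with UCI-1001, 0.677% with UCI-1014 and 0.503% in p53-null.

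Leaving out 1 library at a time gave 8 to 44 calls with UCI-1001 (7 to 31 higher, 1 to 13 lower), 79 to 102 with UCI-1014 (59 to 75, 19 to 27), 50 to 70 between the compounds (44 to 59, 6 to 13) and 94 to 114 with p53-WT (30 to 37, 64 to 77). The lowest UCI-1001 count was without DMSO 1.

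Whether the replicate numbers pair the samples cannot be settled from so few libraries. Correlations of same-numbered deviations were 0.06, -0.03 and -0.16 in TOV-112D, where the deviations of 2 libraries mirror each other. In Saos-2 they were 0.14, 0.09 and 0.08, against -0.19 to 0.13 for unlike numbers. With the replicate block 30 genes were called with UCI-1001, 98 with UCI-1014, 70 between the compounds and 114 with p53-WT. With UCI-1014 numbers crossed, chosen after seeing the data, the block called 84 between the compounds.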
